A study of Mus musculus with 8 samples.

Results

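Aerocytes and general capillary cells are the kinds of capillary endothelial cell that line the gas exchange surface of the mouse lung, and 10 genes that mark them or the lung endothelium as a whole were followed here in fetal lungs with and without tracheal occlusion (TO). The genes were picked by name, and all 10 were found by symbol among the 55385 genes of the count files. Car4, Ednrb and Apln stand for aerocytes, Aplnr, Gpihbp1, Plvap and Kit for general capillary cells, Sox17 for arterial endothelium, and Pecam1 and Cdh5 for endothelium of any kind. Bulk RNA of whole lungs from C57BL/6 fetuses was sequenced at E18.5, 4 libraries from control and 4 from TO fetuses. In the TO group a transuterine stitch earlier in gestation had closed the trachea, together with a carotid artery and a jugular vein. The dams received progesterone before collection. Whether control fetuses underwent any surgery is not given in the sources used here. The libraries are called control 1 to 4 and TO 1 to 4. The study's own analysis shows only some of these lungs. Those lungs, TO 2 to 4 with control 1, control 2 and control 4, were compared first here, as 6 libraries. The labels do not say whether the lungs came from separate litters, so p-values measure the spread between these samples only.

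Read pairs on genes numbered 270078 in TO 1 and between 22822261 and 35002061 in each of the other 7 libraries. A single read pair was worth 3.43 CPM (counts scaled to a common library size) in TO 1 and at most 0.0438 CPM elsewhere, so TO 1 resolves only the more abundant genes. CPM values were scaled by the TMM method over all 8 libraries.

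Aerocytes are large, thin capillary cells specialised for gas exchange, and general capillary cells are their smaller neighbours, which can divide and give rise to aerocytes and to cells of their own kind. The 2 cell types signal to each other through apelin, a peptide made by aerocytes whose receptor sits on general capillary cells. Aerocytes appear late in gestation under the influence of VEGF from the alveolar epithelium. In RNA from whole lung, fewer cells of a type and less RNA of a gene per cell cannot be told apart, and this holds for every value given here.

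The tissue matched its label. Sftpc, the surfactant protein gene of alveolar type 2 cells, was at 4419 CPM in TO 1 and between 5640.3 and 12778 CPM in the other libraries. Endothelial RNA was present in every library. The sum of 22 further endothelial genes lay at 2175, 2239.5, 2227 and 1986 CPM in controls 1 to 4 and at 1538, 2421, 1741 and 1943 CPM in TO 1 to 4. Cldn5, a tight junction gene, and Eng, a co-receptor for TGF-beta, were the most abundant of them per length.

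No member passed the test of TO against control across all genes. With the 6 libraries the quasi-likelihood test of edgeR, at a threshold of 0.1 for the adjusted p, called 0 of 10 members and 0 of 21859 genes (0%). An unadjusted p under 0.05 was found for 1 member, Plvap, against 5.14% of all genes tested. With control 3 included it was found for no member, against 451 of 22539 genes. Limma-voom called 0 members, with 1 at an unadjusted p under 0.05, against 1361 of 21859 genes. DESeq2 called 0 of 10 members and 0.201% of all genes. At an unadjusted p under 0.05 DESeq2 had 2 members, against 1336 of 21859 genes. With all 8 libraries edgeR again called 0 members and 0 of 22545 genes (0%). Of the 10 members 3 had a log2 fold change above 0 and 7 below 0 in the 6 libraries, beside a median over all genes of -0.0045. In CPM the groups were without overlap for 1 member, Plvap, a share close to the 10.9% of all genes tested.

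**Figure D1:**
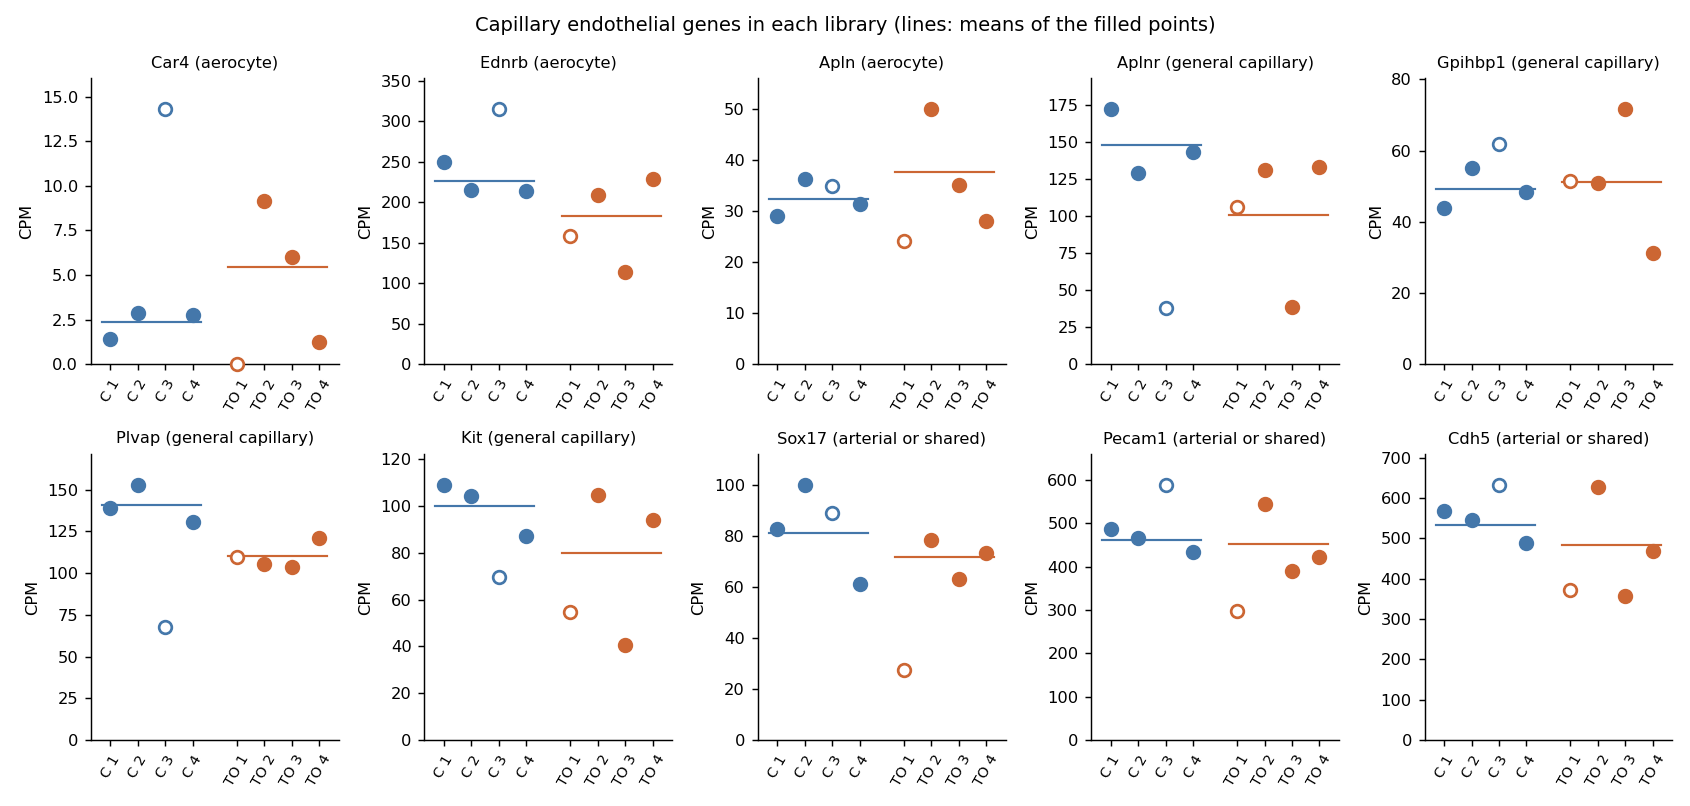
CPM of each of the 10 genes (vertical axes, from 0) in controls 1 to 4 (C 1 to C 4, blue) and TO 1 to 4 (orange). Filled points are the 6 libraries compared first, open points are control 3 and TO 1, and lines are the means of the filled points. Car4 and Aplnr spread most from lung to lung, and Plvap is the only gene whose filled points do not overlap between the groups.

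Levels of different genes were compared per kb of exon. Among controls 1, 2 and 4 the order ran from Cdh5 at 127 ± 9.80 CPM per kb (SD, n = 3) to Car4 at 1.19 ± 0.419 CPM per kb (SD, n = 3). Pecam1 followed Cdh5 at 74.2 ± 4.35 CPM per kb (SD, n = 3), and its range overlapped that of Plvap at 70.8 ± 5.75 CPM per kb (SD, n = 3). Ednrb stood next at 53.1 ± 4.76 and Aplnr at 40.1 ± 5.97 CPM per kb (SD, n = 3), and their ranges did not overlap. Gpihbp1 (19.3 ± 2.23 CPM per kb) and Sox17 (17.1 ± 4.08) overlapped, as did Kit (11.2 ± 1.29) and Apln (10.2 ± 1.17). The 3 aerocyte genes thus stood at 3 very different levels. The next shares rest on means over the 7 libraries other than TO 1, in which Car4 was at 2.74 CPM per kb. Per length Ednrb was above 95.4% of the genes with a mean of at least 1 CPM, Apln above 69.1% and Car4 above 31.1%.

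**Figure D2:**
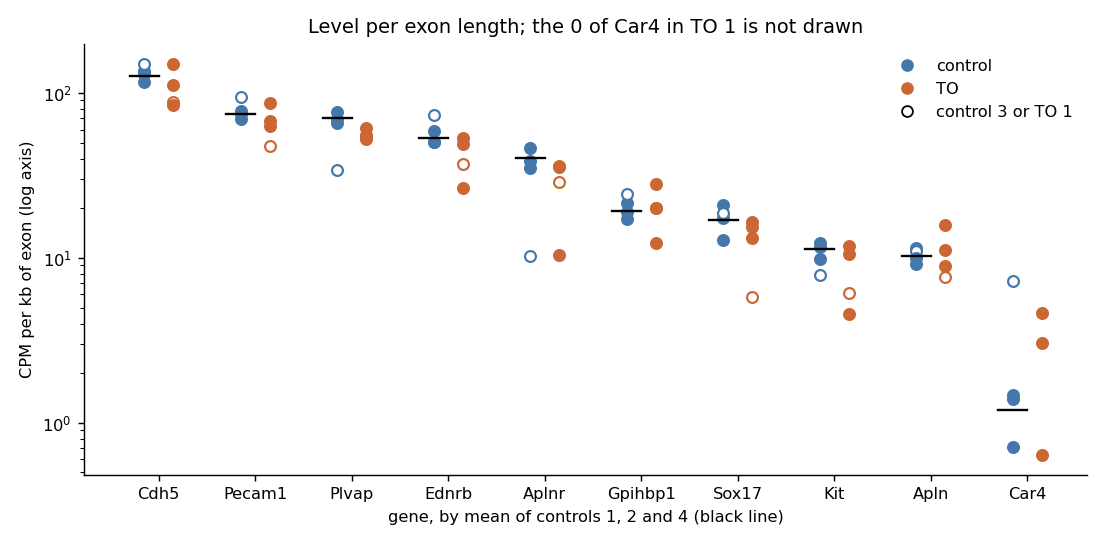
CPM per kb of exon (vertical, log axis) of the 10 genes in each library, ordered by their mean in controls 1, 2 and 4 (black lines). Control libraries are blue, TO libraries orange, and control 3 and TO 1 open. Car4 lies lowest, and in control 3 it reached 7.27 CPM per kb.

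Car4 (ENSMUSG00000000805.18, chr11:84957786-84966044, plus strand, GENCODE M21 on GRCm38) encodes a carbonic anhydrase anchored to the cell surface and is widely used as an aerocyte marker. It was at 1.40, 2.89, 14.3 and 2.75 CPM in controls 1 to 4 and at 0, 9.16, 5.99 and 1.25 CPM in TO 1 to 4. Control 3, TO 2 and TO 3 were high, and control 1, control 2, control 4 and TO 4 were low, so both groups held high and low lungs and they overlapped. The 0 of TO 1 allows up to 3 read pairs, or 10.3 CPM, so at that depth a level as high as that of TO 2 could have gone unseen. Among the 6 libraries the controls had a mean of 2.35 ± 0.824 CPM (SD, n = 3), and the TO lungs one of 5.47 ± 3.98 CPM (SD, n = 3). The log2 fold change was 1.21 (edgeR, standard error SE 0.62, adjusted p = 0.907). It was 0.030 (edgeR, SE 0.81, adjusted p = 0.9998) once control 3 was included, and with TO 1 as well it was -0.063. Without TO 2 it was 0.60, and without TO 4 it was 1.69.

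Ednrb (ENSMUSG00000022122.15, chr14:103814625-103844402, minus strand) encodes the endothelin receptor type B, which clears endothelin and signals in endothelial cells. It was at 249.9, 215, 315 and 214 CPM in controls 1 to 4 and at 158, 209, 113 and 229 CPM in TO 1 to 4. Control 3, which was also highest for Car4, was highest, and TO 3 was lowest, whereas TO 4 lay among the controls and TO 2 just under the lowest of them. Its log2 fold change was -0.30 (edgeR, SE 0.23, adjusted p = 0.912), and with all 8 libraries -0.48. Without TO 3 it was -0.037.

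Apln (ENSMUSG00000037010.7, chrX:48025146-48034853, minus strand) encodes the apelin peptide. It was at 29.1, 36.3, 34.8 and 31.3 CPM in controls 1 to 4 and at 24.0, 49.9, 35.1 and 27.9 CPM in TO 1 to 4, the first of these from 7 read pairs. TO 2 stood highest, and TO 3 and TO 4 fell within or just below the range of the controls. TO against control gave a log2 fold change of 0.22 (edgeR, SE 0.21, adjusted p = 0.931), and without TO 2 it was -0.032. Apln lies on the X chromosome, and the libraries differed in sex-linked RNA. Xist, the RNA of the inactive X chromosome, was at 1851, 1999, 1716 and 1854 CPM in control 1, control 4, TO 3 and TO 4 and at no more than 1.88 CPM in the others. Eif2s3y of the Y chromosome was at 98.5, 101, 99.6 and 80.7 CPM in control 2, control 3, TO 1 and TO 2 and below 0.5 CPM in the rest. Of the 3 sex-linked genes of 5 that were tested, 1 was above and 2 below 0, with a median log2 fold change of -0.11. Each group thus held lungs of both kinds, and their part in the level of Apln was not tested.

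The 3 aerocyte genes varied differently from lung to lung. Their median log2 fold change was 0.22 in the 6 libraries, with 2 above and 1 below 0, and -0.063 over all 8. Their start regions are shown because the genes, used as markers of a single cell type, differed in how they varied between lungs. The region of Kit, the general capillary gene with an entry, is set beside them. RefSeq gives such a region of 300 bases around the start for 4 of the 10 members on GRCm38.p6, these being Car4 (chr11:84957504-84957803, plus strand), Ednrb (chr14:103843652-103843951, minus strand, which lies inside the gene as given above and so belongs to a start further down), Apln (chrX:48034804-48035103, minus strand) and Kit (chr5:75574737-75575036, plus strand, the first of 2 overlapping entries). Regions of Aplnr, Gpihbp1, Plvap, Sox17, Pecam1 and Cdh5 were not used here. Capitals mark any match, on either strand, to ACAAT (the core bound by SOX factors), CAGGAA (an ETS core with its flanking bases), TATAAA or GGGCGG (a GC box).
Car4: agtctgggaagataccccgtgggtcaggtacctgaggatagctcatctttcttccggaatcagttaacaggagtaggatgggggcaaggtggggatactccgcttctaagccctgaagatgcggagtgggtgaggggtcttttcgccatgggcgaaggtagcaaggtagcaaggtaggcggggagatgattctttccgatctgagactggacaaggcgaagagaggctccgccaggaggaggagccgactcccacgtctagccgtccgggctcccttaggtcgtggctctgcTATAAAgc
Ednrb: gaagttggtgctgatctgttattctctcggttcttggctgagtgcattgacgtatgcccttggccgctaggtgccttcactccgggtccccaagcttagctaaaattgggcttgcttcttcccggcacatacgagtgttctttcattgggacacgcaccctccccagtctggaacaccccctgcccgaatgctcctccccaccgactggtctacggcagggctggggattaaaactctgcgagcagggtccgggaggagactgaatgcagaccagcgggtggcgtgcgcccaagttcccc
Apln: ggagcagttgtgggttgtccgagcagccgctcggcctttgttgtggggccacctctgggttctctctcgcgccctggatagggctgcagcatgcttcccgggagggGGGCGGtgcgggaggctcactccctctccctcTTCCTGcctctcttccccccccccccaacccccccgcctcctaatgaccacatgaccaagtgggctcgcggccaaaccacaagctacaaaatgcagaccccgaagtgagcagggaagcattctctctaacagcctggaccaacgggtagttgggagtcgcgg
Kit: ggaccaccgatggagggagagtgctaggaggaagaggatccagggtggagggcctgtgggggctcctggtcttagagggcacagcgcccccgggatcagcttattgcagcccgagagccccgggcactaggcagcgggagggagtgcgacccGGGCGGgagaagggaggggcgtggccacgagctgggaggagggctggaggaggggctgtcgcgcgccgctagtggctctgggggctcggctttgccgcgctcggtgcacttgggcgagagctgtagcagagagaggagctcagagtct
ACAAT was in none of these 4 regions and in 30.8% of 32544 distinct RefSeq regions of the same length. CAGGAA was found once, in Apln on the strand opposite to the one printed, and in 30.5% of all regions. GGGCGG was found in Apln and in Kit, and in 35.9% of all regions. TATAAA was found in Car4 alone of these genes, at bases 293 to 298 of those printed and so after the annotated start, and in 13.6% of all regions. The regions of Car4, Ednrb and Apln held 15 CG pairs each, against a median of 7, and their GC content was 57.3%, 58.7% and 64.0%. That of Kit held 20 CG pairs with a GC content of 69.0%. No binding of any factor was measured, and these matches are a description of the letters only.

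Among the general capillary genes the receptor of apelin varied most. Aplnr (ENSMUSG00000044338.9, chr2:85136225-85139923, plus strand) was at 173, 129, 38.0 and 144 CPM in controls 1 to 4 and at 106, 131, 38.7 and 134 CPM in TO 1 to 4. A single lung of each group, control 3 and TO 3, was low, at well under the level of all the rest, and the groups overlapped. Controls of the 6 libraries had a mean of 148 ± 22.1 CPM (SD, n = 3), and TO lungs one of 101 ± 54.1 CPM (SD, n = 3). The log2 fold change was -0.55 (edgeR, SE 0.38, adjusted p = 0.909). Without TO 3 it was -0.15, and with control 3 included it was -0.26.

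Plvap (ENSMUSG00000034845.6, chr8:71497765-71511752, minus strand) encodes the protein of the diaphragms that span endothelial fenestrae and caveolae. It was at 139, 153, 67.5 and 130.4 CPM in controls 1 to 4 and at 109.9, 105, 104 and 121 CPM in TO 1 to 4. Each TO lung lay below control 1, control 2 and control 4, but control 3 lay below every TO lung. Controls of the 6 libraries had a mean of 141 ± 11.4 CPM (SD, n = 3), and TO lungs one of 110.1 ± 9.73 CPM (SD, n = 3). Its log2 fold change was -0.35 (edgeR, SE 0.11, adjusted p = 0.907), and the adjusted p from DESeq2 was 0.501. With control 3 included it was -0.15 (edgeR, SE 0.24, adjusted p = 0.9998). Plvap overlaps the gene Gtpbp3 on the opposite strand, and in counts without strand a read on bases of both genes is set aside as ambiguous and enters neither.

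Kit (ENSMUSG00000005672.12, chr5:75574916-75656722, plus strand) encodes the receptor of stem cell factor. It was at 109, 104, 69.8 and 87.3 CPM in controls 1 to 4 and at 54.9, 105, 40.7 and 94.2 CPM in TO 1 to 4. TO 3 was lowest, while TO 2 and TO 4 were among the controls, and the log2 fold change was -0.32 (edgeR, SE 0.30, adjusted p = 0.931). Without TO 3 it was 0.0026. Mast cells also carry Kit, and of 8 mast cell genes 5 were tested and all 5 had a log2 fold change above 0. Their sum was 37.2, 43.3, 45.0 and 33.6 CPM in controls 1 to 4 and 216, 64.6, 54.7 and 43.7 CPM in TO 1 to 4. Hdc, the histamine enzyme gene, was the most abundant of them per length, followed by Tpsb2, a tryptase gene, at 1.64 to 9.08 CPM outside TO 1. The mast cell receptor genes Fcer1a, Ms4a2 and Mrgprb1 were each at most at 0.207 CPM and were not tested. The part of mast cells in the level of Kit was not tested.

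Gpihbp1 (ENSMUSG00000022579.10, chr15:75596628-75599481, plus strand) encodes the protein that carries lipoprotein lipase to the capillary lumen. It was at 43.9, 55.3, 61.9 and 48.5 CPM in controls 1 to 4 and at 51.5, 51.0, 71.7 and 31.3 CPM in TO 1 to 4. Both the highest and the lowest of the 7 deep libraries were TO lungs, TO 3 and TO 4, and control 3 was next to the highest. TO against control gave a log2 fold change of 0.053 (edgeR, SE 0.25, adjusted p = 0.988), and its sign turned without control 1 (-0.015) or without TO 3 (-0.25). The median log2 fold change of the 4 general capillary genes was -0.34 in the 6 libraries, with 1 above and 3 below 0, and -0.20 over all 8. Their mean log2 CPM was 6.70, 6.69, 5.85 and 6.56 in controls 1 to 4. In TO 1 to 4 it was 6.25, 6.53, 5.87 and 6.38. Among the 6 libraries this mean was lower in TO without overlap, with a difference of -0.39. The lowest control, at 6.56, and the highest TO lung, at 6.53, were close, and TO 3 was well below both. Of all single genes tested in these libraries, 10.9% were also without overlap. With control 3 included the groups overlapped and the difference was -0.19.

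**Figure D3:**
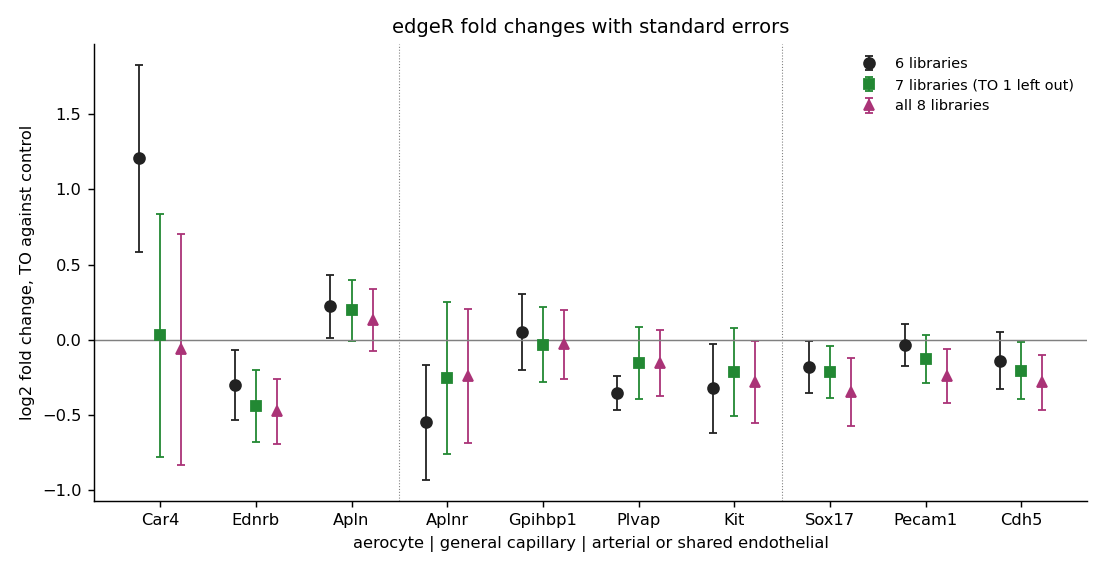
Log2 fold change of TO against control from edgeR (vertical axis) for each of the 10 genes, with bars of 1 standard error. Black circles are the fit of 6 libraries, green squares that of 7 with control 3, and purple triangles that of all 8. Car4 moves from 1.21 to 0.030 and -0.063, and Plvap from -0.35 to -0.15.

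The remaining members mark endothelium at large or its arterial part. Pecam1 (ENSMUSG00000020717.19, chr11:106654217-106750628, minus strand), an adhesion molecule of endothelial junctions, was at 487, 467, 589 and 433 CPM in controls 1 to 4 and at 299, 544, 390.0 and 422 CPM in TO 1 to 4. Cdh5 (ENSMUSG00000031871.9, chr8:104101625-104144511, plus strand), the cadherin of the same junctions, was at 567, 546, 633 and 488 CPM in controls 1 to 4 and at 371, 628, 356 and 468 CPM in TO 1 to 4. Both were high in control 3 and TO 2 and low in TO 1 and TO 3, and the groups overlapped for both. Their log2 fold changes were -0.033 (SE 0.14) for Pecam1 and -0.14 (SE 0.19) for Cdh5, with adjusted p of 0.985 and 0.957 from edgeR. Without TO 3 both turned sign, to 0.076 for Pecam1 and 0.051 for Cdh5, and without TO 2 they were -0.18 and -0.37. Sox17 (ENSMUSG00000025902.13, chr1:4490931-4497354, minus strand), a transcription factor of arterial endothelium, was at 82.7, 100.3, 89.3 and 61.5 CPM in controls 1 to 4 and at 27.5, 78.6, 63.4 and 73.4 CPM in TO 1 to 4. Its lowest deep library was control 4, so the groups overlapped, with a log2 fold change of -0.18 (edgeR, SE 0.18, adjusted p = 0.936). Without control 4 it was -0.35 and without control 2 it was -0.0024, with the sign unchanged.

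The balance of aerocyte to general capillary RNA was taken within each library as the mean log2 CPM of the 3 aerocyte genes minus that of the 4 general capillary genes, which does not depend on how libraries are scaled against each other. It was -2.23, -1.86, -0.096 and -1.82 in controls 1 to 4 and -3.50, -1.02, -1.02 and -2.03 in TO 1 to 4. Control 3 was highest, TO 2 and TO 3 came next, and TO 4 lay among the remaining controls. The rank of TO 1 was not measured, since it rests on the 0 count of Car4. The mean was -1.35 ± 0.58 (SD, n = 3) in TO and -1.97 ± 0.23 (SD, n = 3) in control lungs of the 6 libraries, a difference of 0.62. With control 3 included the difference was 0.15, and with TO 1 as well it was -0.39, where the 0 count of Car4 enters with a prior count of 2. The same quantity from the 9 other aerocyte and the 10 other general capillary genes that were tested, a choice made after the values were seen, was 0.27, 0.42, -0.024 and 0.12 in controls 1 to 4 and -0.48, 0.43, 0.17 and -0.059 in TO 1 to 4. These groups overlapped, and over the 6 libraries the difference had the other sign, at -0.092. The aerocyte genes differed among themselves in this, and over the 7 deep libraries the log2 ratio of Car4 to Ednrb ranged from -7.43 in TO 4 to -4.22 in TO 3.

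Members were also set against Pecam1 and Cdh5 of the same library. The log2 ratio of Aplnr to the mean of Pecam1 and Cdh5 was -1.61, -1.97, -4.00 and -1.68 in controls 1 to 4 and -1.64, -2.15, -3.26 and -1.73 in TO 1 to 4. For Plvap it was -1.92, -1.72, -3.18 and -1.82 in controls 1 to 4 and -1.60, -2.47, -1.84 and -1.87 in TO 1 to 4. Control 3 and TO 3 were low for Aplnr, but only control 3 was low for Plvap, in which TO 2 came next. On the log2 scale the mean ratio in TO minus that in control lungs was -0.64 for Aplnr and -0.24 for Plvap in the 6 libraries, and 0.11 and 0.21 in all 8. Without TO 3 that of Aplnr was -0.20, and without TO 2 that of Plvap was -0.039. For Apln it was 0.30 in the 6 libraries and 0.31 in all 8, and 0.18 without TO 3, with groups that overlapped.

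The lungs that stood apart share digits in their specimen names. Control 3 and TO 3 share one set of digits, control 2 and TO 2 another, and control 1, control 4, TO 1 and TO 4 a further one, and what these digits mark is not given in the sources used here. Of the 7 deep libraries, control 3 and TO 3 were the lowest pair for Aplnr, Plvap and Kit and the highest pair for Gpihbp1. For Plvap, however, TO 3 at 104 CPM lay just under TO 2 at 105 CPM, and only control 3 stood apart. Over the 10800 genes with a mean of at least 10 CPM they were the lowest pair for 19.6% and the highest pair for 14.7%, and this comparison was chosen after the values were seen. Within the digits of control 3 and TO 3, the log2 CPM in TO minus that in control was -1.24 for Car4, -1.47 for Ednrb, 0.026 for Aplnr and 0.62 for Plvap. Between TO 2 and control 2 it was 1.64 for Car4, -0.045 for Ednrb, 0.022 for Aplnr and -0.54 for Plvap. Between TO 4 and the mean of controls 1 and 4 it was -0.62 for Car4, -0.017 for Ednrb, -0.24 for Aplnr and -0.15 for Plvap. Car4 and Plvap thus had differences of either sign, while the difference of Aplnr was at most 0.24 in size in each. That of Ednrb was below 0 in each, but close to 0 outside the set of control 3 and TO 3. Aerocyte minus general capillary RNA differed by -0.92, 0.84 and -0.00024 between TO and control in the same 3 sets.

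Genes of the cell cycle set the same lungs apart. The sum of 8 cell cycle genes was 1627, 1236, 436 and 1333 CPM in controls 1 to 4 and 1476, 792, 364 and 1313 CPM in TO 1 to 4. Control 3 and TO 3 were the lowest pair of the 7 deep libraries for all 8 of them. Mki67, which marks dividing cells, and Top2a, the topoisomerase of dividing cells, were the most abundant per length. All 8 had a log2 fold change below 0 in the 6 libraries, with a median of -0.77, and 0 were called by edgeR. The median was -0.38 over all 8 libraries. Their part in the low Aplnr and Kit of these lungs, and in the low Plvap of control 3, was not tested.

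**Figure D4:**
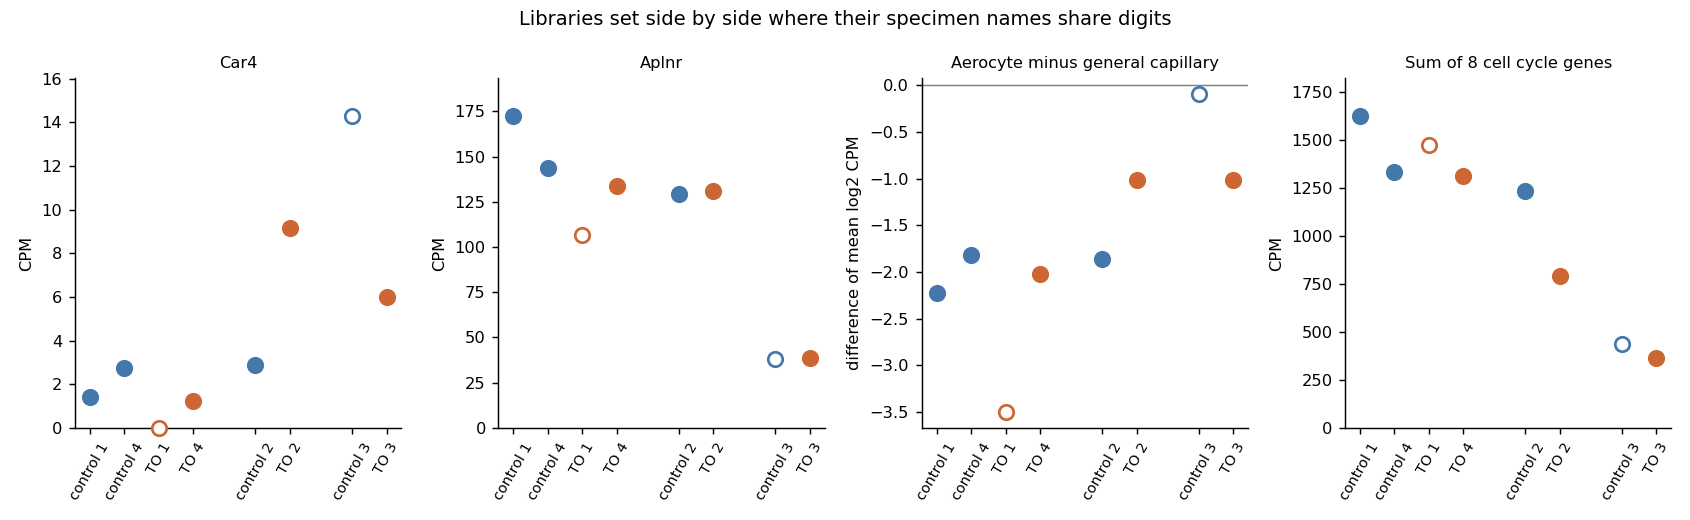
Car4 in CPM, Aplnr in CPM, the mean log2 CPM of the aerocyte minus that of the general capillary genes, and the summed CPM of 8 cell cycle genes (vertical axes) in each library. Libraries whose specimen names share digits stand side by side, controls in blue, TO in orange, control 3 and TO 1 open. Control 3 and TO 3 are low for Aplnr and for the cell cycle sum whatever their group.

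The genes most like the members over the 7 deep libraries were sought among those with a mean of at least 10 CPM, by the root mean square difference of their centred log2 CPM. Closest to the mean of the aerocyte genes were Igfbp6, Btg3, Prdm1, Impdh1 and Agt, at 0.0991 for Igfbp6 to 0.165 for Agt, where the pattern itself had an SD of 0.483. Igfbp6, which encodes a binding protein of insulin-like growth factors, was at 115 CPM in control 3, 97.8 CPM in TO 2, 65.7 CPM in TO 3 and 37.4 CPM in TO 4. Closest to the mean of the general capillary genes were Gm10123, Fscn1, Etv5, Vrk1 and Rbm8a, at 0.0545 to 0.0847 against an SD of 0.336. Fscn1, an actin-bundling protein gene, was at 119 CPM in control 3, 109 CPM in TO 3 and 178 to 209.6 CPM in the other deep libraries. Closest to Pecam1 and Cdh5 were Tmem179b, Lima1, Cript, Ttll1 and Pag1, at 0.0563 to 0.0767 against an SD of 0.227. For the widest-ranging members, Car4 and Aplnr, the search was repeated for each alone after the values were seen. Over the 7 libraries the SD of log2 CPM was 0.93 for Aplnr, larger than in 98.3% of the 10800 genes at that level, whose median was 0.21. For Car4 it was 1.31, but Car4 lies below 10 CPM on average and is not among them. Closest to Car4 were Prkg2, Sphk1, Sftpd, Nupr1 and Pamr1, at 0.409 to 0.533. Sftpd, the surfactant protein D gene of the epithelium, was at 44.9, 78.2, 286 and 64.4 CPM in controls 1 to 4 and at 172, 322 and 35.6 CPM in TO 2 to 4, so it was high where Car4 was. Closest to Aplnr were Cdkn2c, Ercc6l, Nuf2, Rad51ap1 and Top2a, at 0.154 to 0.196, and Nuf2 and Top2a act in chromosome segregation. These are likenesses over 7 libraries and carry no test.

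**Figure D5:**
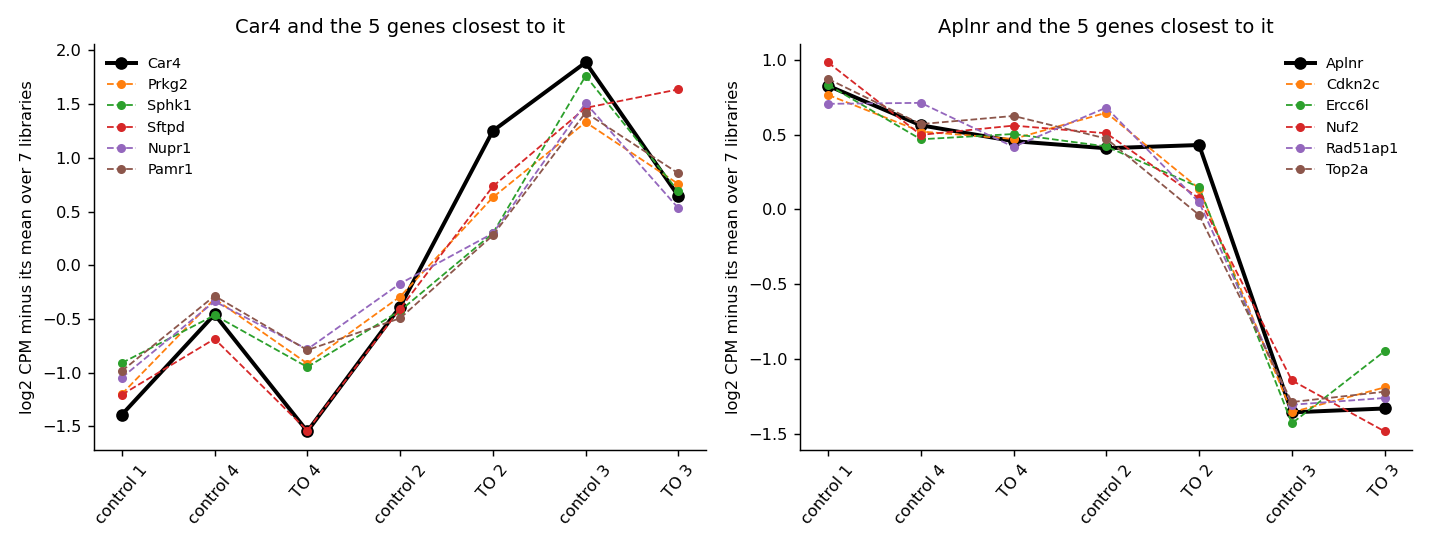
Log2 CPM minus its mean over the 7 deep libraries (vertical axes) for Car4 and Aplnr (black) and the 5 genes closest to each (colours). Libraries whose specimen names share digits stand side by side and the lines only join points of the same gene. Car4 and its neighbours are highest in control 3 or TO 3, and Aplnr and its neighbours are lowest in these lungs.

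The partners of the members in signalling were also measured. Of 12 such genes 6 were above and 6 below 0 in the 6 libraries, with a median log2 fold change of 0.0036 (-0.10 with control 3 included). The edgeR test called 0 of them, with 2, Lpl and Edn3, at an unadjusted p under 0.05, against 5.14% of all genes tested. Lpl, the lipoprotein lipase that Gpihbp1 carries, was at 68.3, 63.9, 295 and 111 CPM in controls 1 to 4 and at 168, 116, 175 and 160.0 CPM in TO 1 to 4. The TO lungs were above the other controls, and control 3 was above every TO lung. The log2 fold change of Lpl was 0.88 (edgeR, SE 0.23, adjusted p = 0.907), and DESeq2 called it with an adjusted p of 0.0454. With control 3 included it was 0.15 (edgeR, SE 0.48, adjusted p = 0.9998). Lmf1, needed for the folding of this lipase, was at 17.0 to 22.8 CPM in the 4 controls and 13.7 to 20.1 CPM in TO, with a log2 fold change of -0.12.

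Edn3, which encodes a ligand of the endothelin receptors, was at 118, 110.0, 206 and 106 CPM in controls 1 to 4 and at 48.1, 77.9, 109 and 74.9 CPM in TO 1 to 4. All TO lungs but TO 3 were below all controls, and TO 3 was above control 4 alone. For Edn3 the log2 fold change was -0.36 (edgeR, SE 0.15, adjusted p = 0.907) in the 6 libraries and -0.73 (edgeR, SE 0.25, adjusted p = 0.99999) in all 8. Within shared digits the difference of log2 CPM was -0.92 for TO 3 against control 3, -0.50 for TO 2 against control 2 and -0.58 for TO 4 against controls 1 and 4. Edn1, the gene of the main endothelial endothelin, was at 13.2, 15.8, 39.7 and 12.5 CPM in controls 1 to 4 and at 6.87, 10.96, 26.0 and 13.5 CPM in TO 1 to 4. Control 3 and TO 3 were the highest of their groups, and the log2 fold change of 0.27 in the 6 libraries turned to -0.28 with control 3 included. Edn2 stayed at or below 1.01 CPM in every library, with at most 35 read pairs. It was at 0.306, 0, 0.269 and 0.121 CPM in controls 1 to 4. In TO 2 to 4 it was at 1.01, 0.413 and 0.682 CPM, above all controls, and the 0 of TO 1 cannot be ranked. From these few reads the log2 fold change of Edn2 was 2.31 (edgeR, SE 1.16, adjusted p = 0.907). Ednra, the endothelin receptor type A of smooth muscle, was at 197, 183, 208 and 185 CPM in controls 1 to 4 and at 130.5, 175, 154 and 169 CPM in TO 1 to 4. No TO lung reached the lowest control, and the log2 fold change was -0.18 (edgeR, SE 0.10, adjusted p = 0.907). In the 6 libraries 2 of the 12 partners were higher in TO without overlap and 1 was lower. Of all genes tested there, 10.9% were without overlap. Ece1, which releases active endothelin from its precursor, had a log2 fold change of 0.16 in the 6 libraries and 0.024 in all 8.

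Apela, the second ligand of the apelin receptor, was at most at 0.606 CPM in any library, so apelin was the ligand of this receptor that could be followed. Kitl, the ligand of Kit, was at 190.3, 159, 155 and 156 CPM in controls 1 to 4 and at 79.0, 253, 155 and 143 CPM in TO 1 to 4. Only TO 2 stood above the controls, and the log2 fold change was 0.13 (edgeR, SE 0.21, adjusted p = 0.966), and -0.0071 in all 8. Vegfa, the epithelial growth factor of capillaries, was at 461, 696, 976 and 604 CPM in controls 1 to 4 and at 364, 726, 1021 and 391 CPM in TO 1 to 4. Control 3 and TO 3 were highest and TO 1 and TO 4 lowest, with a log2 fold change of 0.27 (edgeR, SE 0.30, adjusted p = 0.940) that turned to -0.11 in all 8 libraries. Sox7 and Sox18, relatives of Sox17 in endothelium, had log2 fold changes of -0.35 and -0.19.

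Other genes of the vessel types gave no call by edgeR either. Of 10 other aerocyte genes 9 were tested, 8 above and 1 below 0, with a median of 0.18 in the 6 libraries and 0.036 with control 3 included, and Rprml had no read in any of the 7 deep libraries. Tbx2, a transcription factor gene, and Emp2, a membrane protein gene, were the most abundant per length, with log2 fold changes of -0.25 and 0.020, and the alveolar type 1 epithelium also expresses Emp2. Of 10 other general capillary genes 9 were above and 1 below 0, with a median of 0.11 and -0.0067 in the same fits, and Cd93 and Tek, receptors of endothelium, had 0.0030 and 0.018. Arterial genes, with Fbln5 and Efnb2 most abundant, had a median of 0.069 (6 of 10 above 0), which turned to -0.036 with control 3 included (5 of 10 above 0). Venous genes, with Ephb4 and Nr2f2, went the other way, from -0.024 (3 of 7 above 0) to 0.092 (6 of 8 above 0). The 22 shared endothelial genes had a median of -0.12, with 6 above and 16 below 0, and the 7 lymphatic genes, with Lyve1 and Pdpn, one of 0.18 (5 of 7 above 0), which was 0.089 with control 3 included (again 5 of 7). Of the lymphatic genes Prox1, Mmrn1 and Reln were higher with an unadjusted p under 0.05 (edgeR) in the 6 libraries, against 5.14% of all genes tested. With control 3 included none was. No other list here had more than 2 such genes in the 6 libraries beside that of the leukocytes. Of the 7 pericyte genes, with Pdgfrb and Higd1b, 5 were above 0, with a median of 0.075, and 3 with control 3 included, with a median of -0.035.

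RNA of other tissues differed between the libraries beside these genes. All 11 cardiac muscle genes were above 0, with a median of 1.21 (0.74 with control 3 included) and 0 called by edgeR, and their sum was 771, 547, 5651 and 4509 CPM in controls 1 to 4 and 8553, 2519, 3786 and 6849 CPM in TO 1 to 4. Actc1 and Myl7, genes of the contractile apparatus, were the most abundant per length. Controls 1 and 2 had the lowest sums, and control 3 and control 4 lay within the range of the TO lungs. Ednrb is also a gene of neural crest cells, of which 7 genes were followed. Their sum was 194, 206, 293 and 187 CPM in controls 1 to 4 and 148, 190.4, 219 and 180.4 CPM in TO 1 to 4, mostly from Erbb3, which epithelium also expresses, while Foxd3 was at 0 in every library. Sox10, which defines this lineage, was low, at 2.98, 2.67, 2.35 and 2.59 CPM in controls 1 to 4 and at 3.43, 3.50, 3.31 and 3.78 CPM in TO 1 to 4. For Sox10 the deep TO lungs were above the controls, where 10.9% of all genes tested did not overlap in the 6 libraries, and TO 1, with 1 read pair, cannot be ranked. Of the 6 neural crest genes tested, 5 were above 0, with a median of 0.38. All 6 leukocyte genes were above 0, with a median of 0.41, led by Fcer1g and Tyrobp. Of them 3, namely Ptprc, Laptm5 and Csf1r, had an unadjusted p under 0.05 in edgeR, in all 8 libraries as in the 6, against 5.14% of all genes in the 6. Pecam1 is also carried by platelets, whose 7 genes, led by Pf4 and Itga2b, summed to 16.4 to 24.0 CPM in controls and 24.0 to 30.9 CPM in TO, with 5 above 0 and a median of 0.14 (0.31 with control 3 included). The 6 erythroid genes, led by Hbb-bs and Hba-a1, had a median of 0.044 (3 above 0) that turned to -0.13 with control 3 included (2 above 0), and the 7 lung epithelial genes, led by Sftpc and Sftpb, one of 0.063 (4 above 0), or 0.10 with control 3 included. The part of any of these in the levels of the capillary genes was not tested.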

How the data were processed

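The authors aligned 150-bp read pairs to GRCm38 with STAR and deposited raw counts of read pairs per gene, not normalized. They name DESeq2 for their own comparison. The count that ignores strand was used, and CPM and log2 CPM (prior count 2) were computed here. Of 55385 gene IDs, 54487 were those of GENCODE M21, version included, and 55144 without it. That release gave symbols, positions and exon lengths. A gene was tested if 3 or more of the fitted libraries had at least 5 reads of it. The test was edgeR 4.0.16 in R 4.3.3 after TMM scaling, adjusted by the Benjamini-Hochberg method over all genes tested. Alternatives were DESeq2 1.42.0, limma-voom (limma 3.58.1), other filters, scalings and prior counts, single-strand counts, blocks, and libraries added or left out. Figures were drawn in Python 3.11.15. The fit was tested on simulated data.

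Genes named are the 10 members, all signalling partners, the 2 most abundant per length of every other list, any list gene called by edgeR (there was none), and the 5 genes closest to each of 3 mean patterns. A single gene that falls under these criteria is not reported here. Chosen after their values were seen were Gtpbp3, Rprml, Sox10, Foxd3, Fcer1a, Ms4a2, Mrgprb1, Ptprc, Laptm5, Csf1r, Prox1, Mmrn1, Reln, and the genes closest to Car4 and to Aplnr alone. Lpl, Sox7 and Sox18 stand in 2 lists each. The members and lists were chosen with earlier results of these data known.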

Additional observations from a re-analysis of the deposited data

Results flagged for a closer look

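Among the 4 control libraries, the Car4 level of control 3, 14.3 CPM, stood far above the other 3 controls, at 1.40 to 2.89 CPM, with a gap of 0.884 of the whole range of the group. The rule that flagged it is set so that chance alone sets a library apart in about 1 of 20 groups of values. This rate was not measured here. In each of the 2 groups 10 genes and 1 difference of means were looked at. Control 3 was also highest for Ednrb and among the lowest for Aplnr and Plvap, and its depth, 32382284 read pairs on genes, was like that of the other deep libraries. The cause was not tested.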

How the results depend on the processing

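The replicate numbers of the titles were not established as a pairing. Deviations of same-numbered lungs from their group means correlated at 0.052, 0.13, 0.16 and 0.071 for numbers 1 to 4 over all 8 libraries, and at 0.12, 0.20 and 0.11 for numbers 2 to 4 without TO 1, where TO 4 correlated more with control 1 (0.17) than with control 4. In the 6 libraries only numbers 2 and 4 form pairs, and TO 3 enters without control 3. With the replicate block edgeR called 219 genes in these and 3 in all 8, against 0 without it, and with a block by shared specimen digits 0 in 6 and 1 in 7 libraries. DESeq2 called 44 genes and a fit with no filter 40, and leaving out single libraries gave 0 to 144, the highest without TO 4 and 52 without control 4. No member was called under any of the 20 alternatives, with a lowest adjusted p of 0.159 (edgeR), for Car4 without TO 4. Of 200 member fold changes under these alternatives 176 kept their sign and 24 did not. Sizes moved also where signs did not: with the replicate block in 6 libraries Car4 went from 1.21 to 0.34, Aplnr from -0.55 to -0.037 and Sox17 from -0.18 to -0.044, and Plvap went from -0.35 to -0.069 with it in all 8. The block by digits gave 0.41 for Car4 in 6 libraries and -0.039 for Plvap in 7.

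With all 8 libraries the log2 fold change turned to -0.063 for Car4 and -0.030 for Gpihbp1, and with 7 libraries to -0.032 for Gpihbp1. With the replicate block in 6 libraries it turned to 0.029 for Ednrb, -0.37 for Gpihbp1, 0.064 for Kit, 0.096 for Pecam1 and 0.077 for Cdh5, and in all 8 to -0.32 for Car4 and -0.12 for Gpihbp1. With the block by digits it turned to -0.36 for Gpihbp1 and 0.033 for Pecam1 in 6 libraries and to -0.18 for Car4 and -0.19 for Gpihbp1 in 7. Limma-voom gave -0.052 for Gpihbp1 and counts of a single strand 0.0078 for Pecam1. With single libraries left out the range was -0.032 to 0.40 for Apln, -0.25 to 0.32 for Gpihbp1, -0.56 to 0.0026 for Kit, -0.18 to 0.076 for Pecam1 and -0.37 to 0.051 for Cdh5. The difference between aerocyte and general capillary RNA moved from 0.62 to 0.15 with control 3 added and to -0.39 with TO 1 as well, where Car4 has a 0 count, and to -0.092 with the other tested genes of both cell types, an alternative chosen after seeing the data. It lay between 0.45 and 0.95 with single libraries left out. The causes of these shifts were not tested. The depth of TO 1 limits every value that rests on it.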
